A study of Mus musculus with 5 samples.

Results

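The genes described here are 33 cholesterol and fatty acid synthesis genes, taken by symbol from the 28693 feature rows counted in lung cells of *Ms4a3-CreER;R26-tdT* mice. They comprise 19 enzymes of the mevalonate and cholesterol pathway, 8 enzymes of fatty acid synthesis and desaturation, and 6 genes that regulate both pathways. The set was drawn up from its summed levels by cell type and library, mainly in macrophages, so those levels are given as a description without a test. Single-cell RNA sequencing was performed on 1 lung library per time point: 1 PBS sham library and 4 libraries taken 3, 7, 14 and 28 days after intratracheal bleomycin, which injures the alveolar epithelium and leads to fibrosis. All mice carried the *Ms4a3-CreER* driver, which is active in granulocyte-monocyte progenitors, and the *R26-tdT* reporter. All received tamoxifen, after which labelled cells pass the reporter on to their descendants. The perfused lungs were digested by a protocol aimed at immune cells, the number of mice behind each library was not given in the sources used here, and the reporter was counted as a feature named RFP. With 1 library per time point no test between time points was possible, and every interval below covers counting error only.

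Cholesterol is built from acetyl-CoA through mevalonate and the isoprenoid farnesyl pyrophosphate, then through squalene, lanosterol and a series of sterol intermediates. Fatty acids start from cytosolic acetyl-CoA, are built to palmitate and are then elongated and desaturated. Both pathways are controlled by the SREBP transcription factors, which SCAP escorts to the Golgi when sterols are low and which INSIG proteins hold back in the endoplasmic reticulum when sterols are plentiful. Alveolar macrophages (AMs) live in surfactant, a film rich in phospholipid and cholesterol that they take up and break down.

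The start-site regions of 4 of these genes are shown first, picked from the 8 whose levels ran most closely with the summed cholesterol enzymes. NF-Y and SREBP are known to act together on genes of this pathway. All 4 windows hold the letters of NF-Y, and 1 holds those searched for SREBP. *Hsd17b7* and *Msmo1*, also among the 8 but not shown, each had 3 matches to the NF-Y letters and 0 to those for SREBP. The sequences are from RefSeq on GRCm38.p6, run 5′ to 3′ on the gene's strand and end 1 base before the annotated start. Capitals mark the letters CCAAT, the NF-Y box, or TCACNCCAC, a sterol regulatory element, on either strand (ATTGG is CCAAT read on the other strand).
Hmgcs1, chr13:119690101-119690350, plus strand: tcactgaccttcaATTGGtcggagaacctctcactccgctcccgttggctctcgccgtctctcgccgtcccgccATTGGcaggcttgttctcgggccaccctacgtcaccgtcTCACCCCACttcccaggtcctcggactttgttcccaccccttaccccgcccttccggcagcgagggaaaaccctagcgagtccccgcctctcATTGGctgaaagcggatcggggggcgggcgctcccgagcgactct
Cyp51, chr5:4104698-4104947, minus strand: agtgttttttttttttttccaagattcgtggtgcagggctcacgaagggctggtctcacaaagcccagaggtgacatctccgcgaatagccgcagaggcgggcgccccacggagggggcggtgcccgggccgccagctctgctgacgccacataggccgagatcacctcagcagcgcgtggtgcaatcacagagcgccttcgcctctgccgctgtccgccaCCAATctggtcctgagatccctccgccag
Idi1, chr13:8885356-8885605, plus strand: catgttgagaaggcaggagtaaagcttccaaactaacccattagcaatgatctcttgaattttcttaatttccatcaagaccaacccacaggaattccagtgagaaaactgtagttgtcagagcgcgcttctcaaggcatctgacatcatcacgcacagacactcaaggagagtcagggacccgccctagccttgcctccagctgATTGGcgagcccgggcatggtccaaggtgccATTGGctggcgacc
Insig1, chr5:28071162-28071411, plus strand: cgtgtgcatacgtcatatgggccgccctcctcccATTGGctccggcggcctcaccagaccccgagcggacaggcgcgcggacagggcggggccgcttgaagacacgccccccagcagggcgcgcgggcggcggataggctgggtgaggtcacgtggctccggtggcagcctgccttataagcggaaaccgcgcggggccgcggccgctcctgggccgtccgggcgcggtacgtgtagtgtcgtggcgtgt
The *Hmgcs1* window held the sterol element, beginning at -137 from the start, and CCAAT letters beginning at -237, -176 and -45. In *Cyp51* the CCAAT letters began at -29, in *Idi1* at -45 and -14, and in *Insig1* at -216.

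Windows of 250 bases were found for 26 of the 33 members, 34 windows in all because some genes have several starts. *Fads1*, *Fdft1*, *Fdps*, *Scd1*, *Scd2*, *Sqle* and *Stard4* had no window in the table. CCAAT letters stood in 21 of the 34 windows (61.8%), against 33.8% of all 32851 windows of the same length. By role, 15 of the 19 windows of cholesterol enzymes held them, 1 of the 5 windows of fatty acid enzymes (*Fasn*) and 5 of the 10 windows of regulators. TCACNCCAC stood in 1 member window, that of *Hmgcs1*, and in 1.05% of all windows. These matches describe letters and not bound sites.

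Barcodes with 300 to 8000 genes, 800 to 60000 unique molecular identifiers (UMIs) and under 15% mitochondrial UMIs were kept, which left 7757 to 10280 cells per library and 44772 in all. Median depth was 9260 UMIs per cell in the day 3 library and 13262 to 14254 in the others. The day 7 library held no barcode below 4624 UMIs, whereas the others reached down to 500 to 502. Pairs of libraries shared 16 to 31 barcodes. Cells were assigned to types by fixed marker lists, and levels are CPM, the UMIs of a gene per 1000000 UMIs summed over the cells of a type in a library.

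In AMs, the cholesterol enzymes were higher in all 4 bleomycin libraries than in the sham library. The AM gate (*Chil3*, *Ear1*, *Ear2*, *Krt79*, *Car4*, *Siglecf*, *Marco* and *Plet1*, without cycling cells and cells high in *Gpnmb*, *Mmp12* and *Mfge8*) held 4855 cells in sham and 658, 1485, 1440 and 2700 at days 3, 7, 14 and 28. The 19 enzymes summed to 873 CPM in sham and to 1655, 1186, 1445 and 1175 CPM on those days. The log2 ratios to sham were 0.92 (95% interval 0.90 to 0.95), 0.44 (0.42 to 0.46), 0.73 (0.71 to 0.74) and 0.43 (0.41 to 0.44). The summed level was therefore highest at day 3, lower at day 7 and higher again at day 14.

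At day 3, 16 of the 30 members with a mean of at least 10 CPM were at least 1.5-fold higher than in sham, where 7.41% of the 7485 genes tested were that much higher. None of the 30 was 1.5-fold lower, against 10.2% of all genes. The 16 were 14 of the 18 cholesterol enzymes that passed the filter, 2 of the 6 fatty acid enzymes and 0 of the 6 regulators. *Tm7sf2* and *Lss*, both among the 14, were under 10 CPM in sham and passed the filter only through their day 3 level. Both passed at day 14 in the same way. The median log2 ratio was 0.98 over the cholesterol enzymes, 0.34 over the fatty acid enzymes and 0.13 over the regulators, against -0.11 over all genes tested.

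Fewer members were 1.5-fold higher at day 7 and more at day 14. At day 7 they were 10 of 29 (5.7% of all genes), made up of 8 of 17 cholesterol enzymes and 2 of 6 fatty acid enzymes, and 0 were lower (9.25% of all genes). At day 14 they were 17 of 30 (8.52%), made up of 13 of 18, 2 of 6 and, among the regulators, 2 of 6, with 0 lower (8.78%). At day 28 they were 5 of 28 (8.73%), made up of 3 of 17 cholesterol enzymes and 2 of 5 fatty acid enzymes, with 1 lower (9.46%). The 5 became 9 without cells above 30000 UMIs, 9 with CPM averaged over cells and 8 with cycling and fibrotic-marker cells kept. The share of all genes was not computed under these settings, so these counts have no background. The members nearest the 1.5-fold line were *Lss* (1.53-fold) and *Sqle* (1.49-fold) at day 3 and *Stard4* (1.51-fold) and *Nsdhl* (1.44-fold) at day 14. All these ratios use the same sham library, so the 4 comparisons are not independent.

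**Figure D1:**
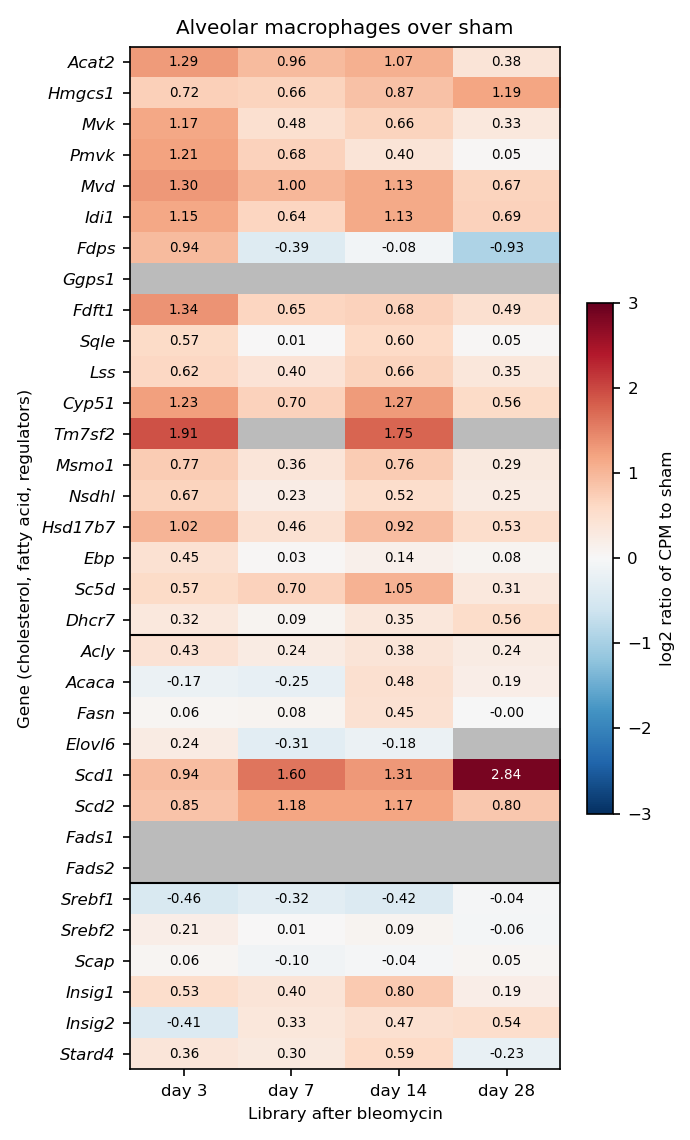
Log2 ratio of each bleomycin library to the sham library in alveolar macrophages, for the 33 members in rows grouped by role and the 4 time points in columns. Grey cells had a mean under 10 CPM in that comparison. Most cholesterol enzymes are higher at days 3 and 14, *Fdps* turns from higher at day 3 (0.94) to lower at day 28 (-0.93), and *Scd1* is highest at day 28 (2.84).

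Among the early enzymes, *Hmgcs1*, which joins acetyl-CoA to acetoacetyl-CoA on the way to mevalonate, measured 119 CPM in sham and 196, 188, 217 and 271 at days 3, 7, 14 and 28. Unlike the summed enzymes it was highest at day 28, at a log2 ratio to sham of 1.19 (1.15 to 1.22). *Acat2*, which makes acetoacetyl-CoA, measured 12.8 CPM in sham and 31.4, 24.9, 27.0 and 16.7 at days 3 to 28. The mevalonate kinase *Mvk* measured 14.8 CPM and then 33.1, 20.6, 23.4 and 18.5. Both were highest at day 3.

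The next steps convert phosphorylated mevalonate to isoprenoids. *Pmvk*, phosphomevalonate kinase, was near its sham level again by day 28: 57.5 CPM in sham, then 134, 92.5, 75.8 and 59.4. *Mvd*, which decarboxylates mevalonate pyrophosphate, measured 40.1 CPM and then 99.0, 80.5, 87.9 and 63.9. *Idi1*, which isomerizes isopentenyl pyrophosphate, measured 76.7 CPM and then 170, 120, 168 and 124. *Idi1* was thus near the same level at days 3 and 14, with log2 ratios to sham of 1.15 (1.07 to 1.22) and 1.13 (1.08 to 1.18).

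*Fdps*, farnesyl pyrophosphate synthase, stood apart from its neighbours in the pathway. It measured 104 CPM in sham, then 199, 79.0, 98.5 and 54.3. Its log2 ratio went from 0.94 (0.87 to 1.01) at day 3 to -0.93 (0.524-fold) at day 28. Among the 28 members that passed the filter of 10 CPM at day 28, it was the 1 at least 1.5-fold lower than sham. *Ggps1*, which makes geranylgeranyl pyrophosphate for protein prenylation and not for sterols, stayed between 7.42 and 9.94 CPM.

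*Cyp51* and *Msmo1*, which act on lanosterol and its products, followed the summed pattern. *Cyp51*, lanosterol 14-alpha-demethylase, measured 67.9 CPM in sham and 159, 110, 164 and 100.4 at days 3, 7, 14 and 28. *Msmo1*, a sterol C4 oxidase, measured 93.8 CPM and then 159.7, 121, 159 and 114. For both, days 3 and 14 were close to each other and above days 7 and 28.

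The squalene synthase *Fdft1* measured 39.0 CPM in sham and 98.8, 61.4, 62.6 and 54.7 after bleomycin, and the squalene epoxidase *Sqle* measured 47.6 CPM and then 70.9, 47.8, 72.1 and 49.2. *Hsd17b7*, a sterol 3-ketoreductase, measured 29.4 CPM and then 59.6, 40.5, 55.8 and 42.5. *Tm7sf2*, a sterol C14 reductase, had the highest log2 ratio among the cholesterol enzymes at day 3, 1.91 (1.65 to 2.16), from a sham level of only 4.68 CPM. *Ebp*, the sterol isomerase, moved little: 73.0 CPM in sham and 99.4, 74.5, 80.7 and 77.3 afterwards. *Lss*, lanosterol synthase, measured 9.73 CPM and then 14.9, 12.8, 15.4 and 12.4, and *Nsdhl*, which removes a sterol C4 carboxyl group, 22.2 and then 35.3, 26.0, 31.9 and 26.5. *Sc5d*, a sterol desaturase, was highest at day 14, at 18.4 CPM in sham and then 27.3, 29.8, 38.0 and 22.7. *Dhcr7*, which reduces 7-dehydrocholesterol, was highest at day 28, at 33.6 CPM in sham and then 42.0, 35.6, 42.7 and 49.5.

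Fatty acid enzymes as a group had a smaller ratio to sham at day 3 than the cholesterol enzymes and kept a larger one at day 28. Their sum was 271 CPM in sham, then 386, 411, 444 and 448 CPM, with log2 ratios to sham of 0.51, 0.60, 0.71 and 0.72. The stearoyl-CoA desaturases *Scd1* and *Scd2*, which put a double bond into saturated fatty acids, made up 31.2% of the group in sham and 40.1%, 49.8%, 43.9% and 53.0% at days 3, 7, 14 and 28. The other 6 enzymes summed to 186 CPM in sham and 231, 207, 249 and 210 afterwards.

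*Scd1* had the largest difference of any member with a mean of at least 10 CPM. It measured 16.6 CPM in sham, then 31.8, 50.3, 41.1 and 119, a 7.16-fold ratio at day 28 (log2 2.84, 2.75 to 2.92). *Scd2* had another course: 68.1 CPM in sham, then 123, 154, 154 and 118. *Scd2* was thus highest at days 7 and 14 and *Scd1* at day 28.

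Among the enzymes of palmitate synthesis, *Acly*, which supplies cytosolic acetyl-CoA, measured 117 CPM in sham and 158, 139, 153 and 138 after bleomycin. *Acaca*, acetyl-CoA carboxylase, measured 18.7 CPM and then 16.6, 15.8, 26.0 and 21.4. *Fasn*, fatty acid synthase, measured 31.3 CPM and then 32.6, 33.2, 42.8 and 31.2. At days 3, 7 and 28 *Fasn* was within its counting interval of the sham level, while the desaturases were not. The elongase *Elovl6* measured 13.7 CPM in sham and 5.50 at day 28, the delta-5 desaturase *Fads1* 5.19 in sham and 13.5 at day 28, and the delta-6 desaturase *Fads2* stayed at or below 0.684 CPM in each library. *Elovl6* had a mean under 10 CPM between sham and day 28, so its lower level is not in the day 28 count.

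The regulators moved less. *Insig1*, itself a target of SREBP, measured 76.8 CPM in sham and 111, 101, 133 and 87.7 at days 3, 7, 14 and 28, highest at day 14. *Stard4*, a sterol transfer protein, measured 39.4 CPM and then 50.6, 48.7, 59.3 and 33.7. These were the 2 regulators at least 1.5-fold higher at day 14. *Insig2* measured 21.9 CPM in sham, 16.4 at day 3 and 27.5, 30.4 and 31.8 later.

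Across the libraries of AMs, the genes for the SREBP factors did not follow their known targets. *Srebf1* measured 45.5 CPM in sham and 33.1, 36.5, 34.1 and 44.4 after bleomycin, below sham at days 3, 7 and 14. *Srebf2*, which mainly drives cholesterol genes, stayed between 53.4 and 64.3 CPM, and *Scap* between 31.9 and 35.8 CPM.

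**Figure D2:**
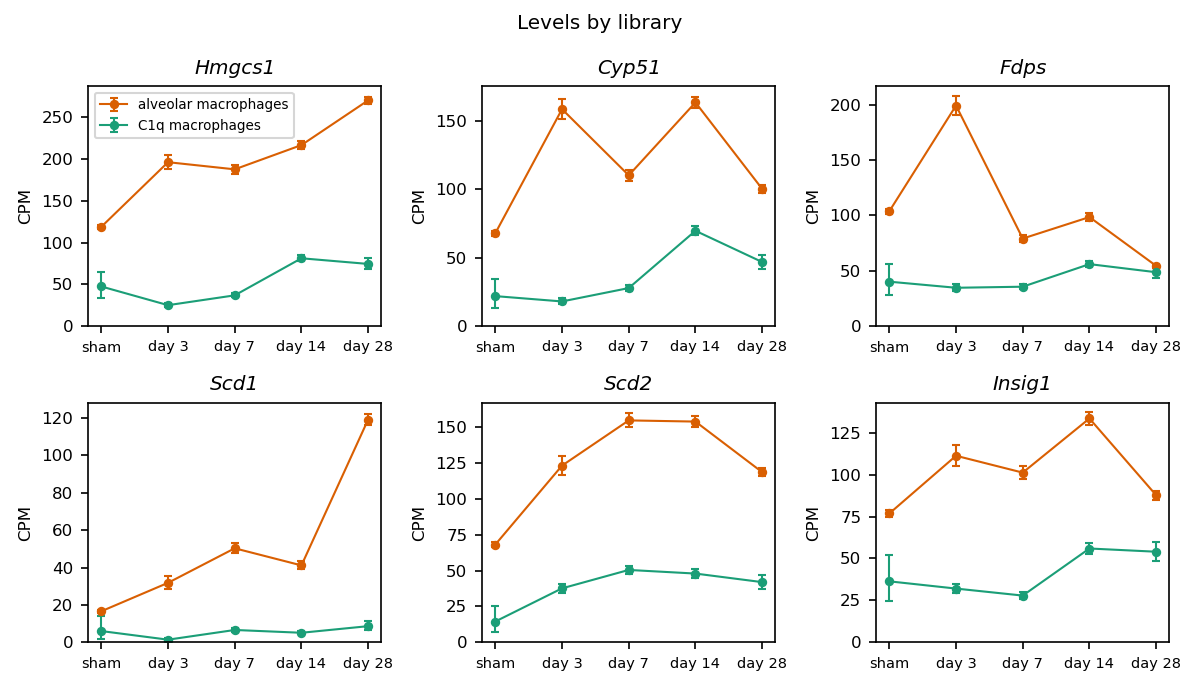
CPM of *Hmgcs1*, *Cyp51*, *Fdps*, *Scd1*, *Scd2* and *Insig1* in alveolar macrophages and C1q macrophages of the 5 libraries, with bars for exact Poisson 95% intervals (counting error only). In alveolar macrophages *Cyp51* is highest at days 3 and 14 (159 and 164 CPM), *Scd1* at day 28 (119 CPM), and *Fdps* at day 3 (199 CPM).

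Other genes of these pathways came from further lists. *Soat1*, which esterifies cholesterol for storage, measured 241 CPM in sham and 253, 395, 386 and 445 at days 3, 7, 14 and 28, so it was higher at the 3 later times. Of 8 further fatty acid genes, 1 was at least 1.5-fold higher (7.41% of all genes) and 1 lower (10.2%) at day 3, 1 was higher at day 14 (8.52%) and none at days 7 and 28. Of 7 genes of SREBP processing and LXR signalling, 2 were lower at day 3 (*Mbtps2* and *Mylip*), where 10.2% of all genes were. None was lower at days 7, 14 and 28 (9.25%, 8.78% and 9.46% of all genes).

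Markers of other cells also moved in the AM gate. The summed list of early recruited macrophages (which includes *Ly6c2*, *Ms4a7* and *Fcgr1*) was at 45.1 CPM in sham and 405, 131, 183 and 135 CPM at days 3, 7, 14 and 28, and the classical monocyte list at 35.6 CPM in sham and 352, 47.2, 24.5 and 14.7 CPM. The C1q list was at 23.1 CPM in sham and 174 to 315 CPM after bleomycin, and the AM list at 21747 CPM in sham and 14022 to 16811 CPM. No gene of these lists was at 0 in any library. Cells high in *Gpnmb*, *Mmp12* and *Mfge8* had been set apart, but *Trem2* and *Spp1* did not enter that split. The fibrotic list (*Gpnmb*, *Mmp12*, *Mfge8*, *Trem2* and *Spp1*) still stood at 1542 CPM in sham and 7019, 3685, 8598 and 10060 CPM at days 3 to 28 in the AM gate. A stricter gate that required 6 AM markers, barred T cell, B cell and mature dendritic cell markers and allowed at most 1 classical monocyte marker and 1 epithelial marker gave log2 ratios of the cholesterol enzymes of 0.84 at day 3 and 0.66 at day 14. The part of these markers in the ratios was not tested further. In the early recruited macrophages themselves the cholesterol enzymes summed to 382 CPM at day 3, below AMs of the same library.

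*Scd1* was also set beside the markers of cell types rich in it. In the epithelial gate *Scd1* reached 1303 CPM at day 28, or 0.124 UMIs per UMI of the type 2 cell list (*Sftpc*, *Sftpb*, *Sftpa1* and *Lamp3*). In AMs of that library the list stood at 32.5 CPM and *Scd1* at 3.66 UMIs per UMI of the list. In sham AMs the list was higher, at 57.8 CPM, and *Scd1* lower, at 0.288 per UMI of the list. B cells gave 0.0431 *Scd1* UMIs per B cell marker UMI at day 28, where AMs gave 43.0. The part of RNA from these cells in the AM values was not tested further.

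The levels were spread over many AMs. With each cell reduced to 2000 UMIs, AMs held a mean of 1.65 cholesterol enzyme UMIs in sham and 3.00, 2.35, 2.97 and 2.44 at days 3, 7, 14 and 28. The share of AMs with none was 34.3% in sham and 20.4%, 25.4%, 17.4% and 22.6% afterwards, and the median went from 1 to 2. The 90th percentile was 4 UMIs in sham and 6 or 7 in the bleomycin libraries. For fatty acid enzymes the share with none was 60.2% in sham and 45.4% to 52.3% afterwards. In T cells, the cholesterol enzymes were absent from 49.9% to 57.8% of cells.

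**Figure D3:**
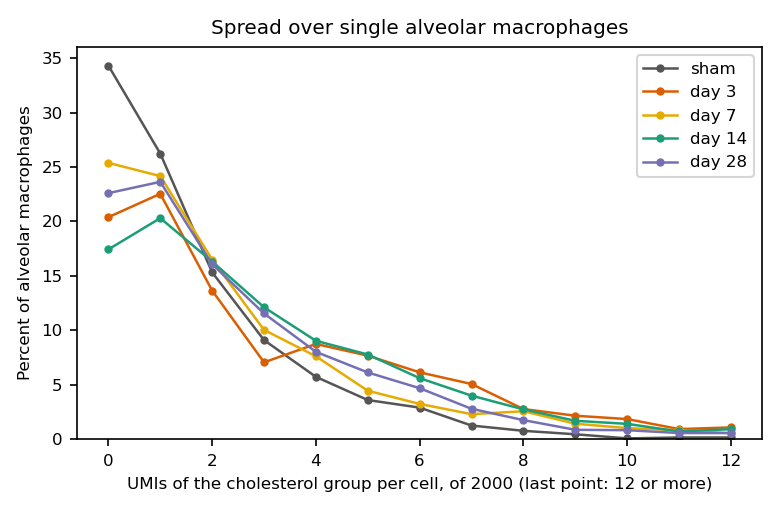
Share of alveolar macrophages in percent by the number of cholesterol enzyme UMIs among 2000 UMIs of the cell, 1 line per library. Sham has the most cells at 0 (34.3%), day 14 the fewest (17.4%), and the bleomycin lines lie above sham from 4 UMIs on.

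*Scd1* UMIs were found in 3.29% of sham AMs (exact 95% interval 2.80% to 3.84%) and in 4.91%, 7.47%, 6.79% and 11.4% at days 3, 7, 14 and 28 after reduction to 2000 UMIs. Without reduction the shares were 16.7%, 28.4%, 37.0%, 42.6% and 38.9%. After reduction, T cells gave 0.176% to 1.91% and neutrophils 0.507% to 2.94%, below the AMs of the same library in each case. Median depth before reduction was 14933 to 22317 UMIs in AMs, 4014 to 8005 in T cells and 2425 to 7187 in neutrophils. B cells, which carry *Scd1* at 178 to 369 CPM, gave 26.4% to 50.9%.

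C1q macrophages, gated by a list that includes *C1qa*, *C1qb*, *C1qc*, *Ms4a7* and *Cx3cr1* and is used for interstitial macrophages, held less of these transcripts and had another time course. They numbered 66 in sham and 1143, 1775, 1023 and 415 at days 3, 7, 14 and 28. The cholesterol enzymes summed to 460 CPM in sham, then 334, 407, 687 and 605 CPM. The fatty acid enzymes summed to 207, 122, 190, 216 and 230 CPM. Both groups were lowest at day 3, the day on which AMs had the highest cholesterol enzyme level.

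Between days 3 and 14, 18 of the 26 members that passed the filter were at least 1.5-fold higher in C1q macrophages, where 14.6% of 7406 genes were. The 18 comprised 11 of 15 cholesterol enzymes, 4 of 5 fatty acid enzymes and 3 of 6 regulators. *Hmgcs1* measured 47.3 CPM in sham and 24.9, 36.7, 81.1 and 74.3 at days 3 to 28, *Idi1* 34.0 and then 14.5, 25.6, 51.9 and 44.7, and *Cyp51* 21.8 and then 17.9, 27.7, 69.7 and 46.8. The day 14 over day 3 ratios were 3.26-fold for *Hmgcs1*, 3.57-fold for *Idi1* and 3.89-fold for *Cyp51*. *Sqle* (4.24-fold) and *Stard4* (4.12-fold) had the largest ratios among those that passed the filter. Both were low at day 3, at 6.71 and 4.94 CPM, and passed the filter on the mean only through their day 14 level. So did *Fdft1*, *Sc5d*, *Dhcr7*, *Acaca*, *Fasn* and *Fads1*, each under 10 CPM at day 3. *Ggps1* was the 1 member at least 1.5-fold lower (24.9% of genes), at 14.3 and 8.03 CPM, and *Ebp* was level at 93.7 and 89.0 CPM. The classical monocyte list also differed between these days. It was read in C1q macrophages with and without fibrotic markers, split by reporter UMIs among 2000 UMIs of the cell. In cells with at least 3 it stood at 4634 CPM at day 3 and 126 CPM at day 14. In cells with none it stood at 3558 and 213 CPM. The part of these markers in the day 14 over day 3 ratios was not tested.

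C1q macrophages high in *Gpnmb*, *Mmp12* and *Mfge8* had cholesterol enzyme sums of 246, 417, 685 and 689 CPM at days 3, 7, 14 and 28, close to those of the other C1q macrophages at days 7 and 14. Among AMs, the cells with these fibrotic markers had less than the others, at 777 against 873 CPM in sham, 787 against 1186 CPM at day 7, 1082 against 1445 at day 14 and 979 against 1175 at day 28.

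AMs had more than C1q macrophages of the same library in every library. The ratio ran from 1.90-fold to 4.95-fold for the summed cholesterol enzymes, from 1.31-fold to 3.16-fold for the fatty acid enzymes and from 1.56-fold to 2.65-fold for the regulators. At least 1.5-fold in all 5 libraries were 11 of 16 cholesterol enzymes, 3 of 6 fatty acid enzymes and 1 of 6 regulators (*Insig1*), against 9.26% of 7657 genes. None of these members was 1.5-fold lower in all 5 (6.33% of genes). *Hsd17b7* (3.14-fold to 26.4-fold) and *Idi1* (2.26-fold to 11.7-fold) had wide ranges. The *Hsd17b7* ratios rest in part on low C1q levels, at 6.06 CPM in sham (5 UMIs) and 2.26 CPM at day 3 (37 UMIs). *Fads1* was higher in C1q macrophages in all 5 libraries, at 35.2, 9.02, 22, 30.0 and 31.8 CPM, although not 1.5-fold in each. *Scd1* stayed between 1.46 and 8.68 CPM in C1q macrophages.

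Cycling AMs, with 3 or more of *Mki67*, *Top2a*, *Birc5*, *Cdk1*, *Ube2c* and *Ccnb2*, had slightly less of the cholesterol enzymes than other AMs, 0.794-fold to 0.922-fold in 4 libraries. None of the 30 members that passed the filter was 1.5-fold higher in all 4 (7.04% of 7809 genes) or 1.5-fold lower in all 4 (0.102%).

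Across all types, plasmacytoid dendritic cells had the highest cholesterol enzyme sum in the 4 libraries in which at least 20 were found. In sham, with 20 cells, it was 1563 CPM. The next 3 libraries, with 171, 156 and 23 cells, gave 1978, 1198 and 2438 CPM. At day 7 it did not differ from the 1186 CPM of AMs beyond counting error. *Fdps* alone measured 342, 533, 174 and 348 CPM in these cells, above its level in AMs in each library, whereas *Scd1* stayed at or below 8.23 CPM. AMs held rank 3 in sham, where mature dendritic cells did not differ from them beyond counting error, rank 2 at days 3, 7 and 14, and rank 1 at day 28, when plasmacytoid cells were too few for a value.

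Mature dendritic cells (*Ccr7*, *Fscn1*, *Cacnb3* and *Il4i1*) combined high cholesterol enzymes with low fatty acid enzymes. The cholesterol sum was 894, 1471, 858, 1288 and 934 CPM in sham and at days 3, 7, 14 and 28, and the fatty acid sum 69.5, 81.7, 136, 138 and 135 CPM. Relative to type 2 dendritic cells of the same library the first was 1.49-fold to 2.20-fold and the second 0.435-fold to 0.685-fold. *Idi1* measured 291, 433, 194, 498 and 328 CPM. At day 3, 7 of the 21 members that passed the filter were at least 1.5-fold higher than in sham (19.3% of 6518 genes), all of them cholesterol enzymes. The log2 intervals of *Mvd* (13 UMIs in sham), *Fdft1* (26) and *Sc5d* (9) reached below 0, and those of the others did not. The 2 regulators *Scap* (14 UMIs in sham and 17 at day 3) and *Insig2* (13 and 26 UMIs) were at least 1.5-fold lower (16.1% of genes). *Pmvk* had the largest ratio, 82.6 CPM in sham (46 cells) and 286 at day 3 (175 cells).

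Fatty acid enzymes were highest in epithelial cells, where they summed to 592, 1054 and 1814 CPM at days 7, 14 and 28. In sham and at day 3, with too few epithelial cells for a value, B cells were highest (327 and 388 CPM), and *Scd1* accounted for 229 and 306 CPM of these. The sham value of B cells did not differ beyond counting error from the 294 CPM of fibroblasts, and the day 3 value did not differ beyond it from the 386 CPM of AMs. The B cell cholesterol sum was 260 to 350 CPM, at rank 11 to 18 among the gates.

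**Figure D4:**
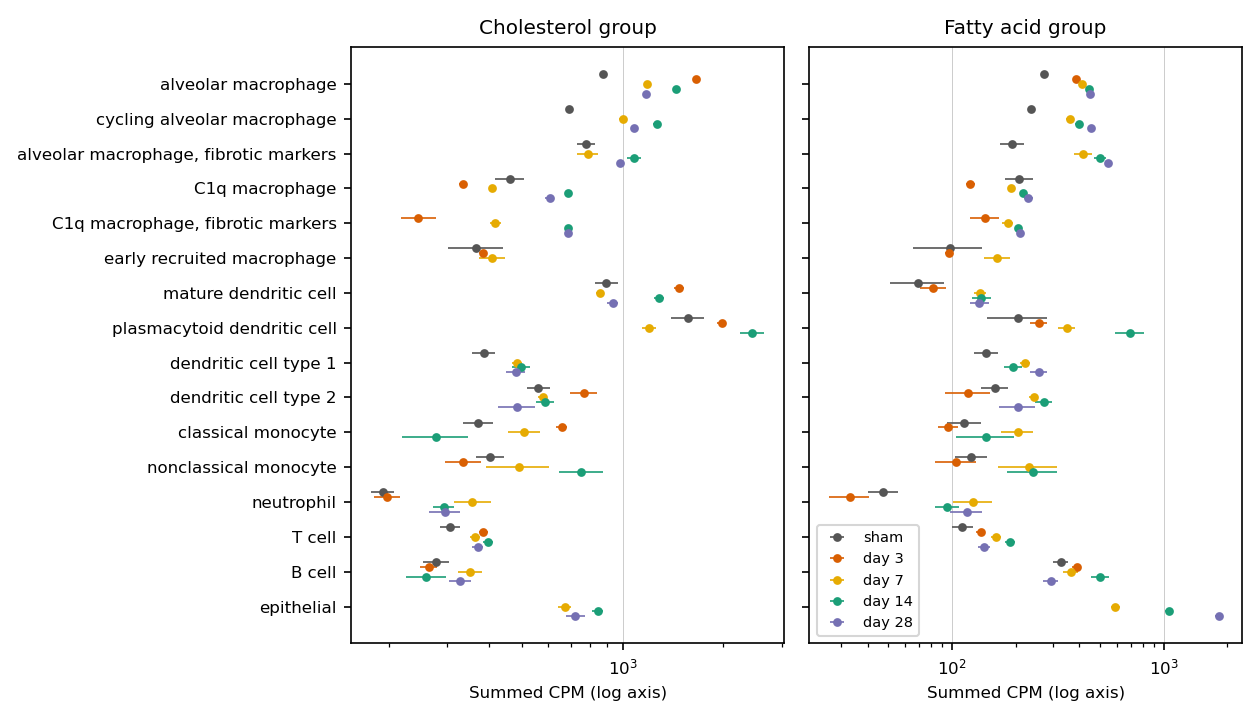
Summed CPM of the cholesterol enzymes and of the fatty acid enzymes by cell type and library on a log axis, for selected gates of at least 20 cells, with bars for exact Poisson 95% intervals (counting error only). Plasmacytoid dendritic cells, alveolar macrophages and mature dendritic cells lie highest for cholesterol enzymes. For fatty acid enzymes epithelial cells lie highest at days 7, 14 and 28 and B cells in sham and at day 3.

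Over the 21 combinations of macrophage gate and library with at least 50 cells, the genes whose log2 level ran most closely with the summed cholesterol enzymes were 8 members: *Idi1* (Pearson r 0.99), *Cyp51*, *Fdft1*, *Hsd17b7*, *Msmo1*, *Insig1*, *Sqle* and *Hmgcs1* (0.97). All but *Insig1* contribute to the sum themselves. The closest non-members among 5875 genes were *Aldoc* and *Ccdc80* (both 0.94) and *Runx1*, *Olr1* and *Pank3* (all 0.93). Of the genes for the SREBP factors, *Srebf2* was at 0.90 and *Srebf1* at 0.64. *Ebp* was a member with a low value (0.18). The points share libraries and depth, so these values are a description.

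The reporter was not used in choosing the genes, so a comparison of reporter-high with reporter-low cells of the same library could be tested. Arms held cells with at least 3 and with 0 RFP UMIs of 2000. In Car4 macrophages (the AM gate with and without fibrotic markers, cycling cells left out) days 14 and 28 had enough cells, 254 high and 831 low at day 14 and 359 high and 2096 low at day 28. Days 3 and 7 had 4 and 14 reporter-high cells and were left out. The test was set up for bleomycin libraries, so sham, with 20 high and 3793 low cells, is given as values. There the cholesterol enzymes summed to 815 CPM in the high and 855 in the low arm (log2 -0.07, -0.24 to 0.10), 6 of the 19 were higher in the high arm, and the classical monocyte list was at 1378 and 19.2 CPM. edgeR's quasi-likelihood test with library as a block called 281 of 11348 genes higher (2.48%) and 331 lower (2.92%) in reporter-high cells after Benjamini-Hochberg adjustment.

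Of the 32 members tested, 3 passed. *Scd1* was lower in reporter-high cells: 17.2 against 52.5 CPM at day 14 and 41.8 against 173 CPM at day 28 (log2 -1.84, SE 0.11, adjusted p = 6.2e-06 from edgeR). *Mvd* was higher, 98.9 against 82.6 CPM at day 14 and 83.6 against 55.1 CPM at day 28 (log2 0.46, SE 0.10, adjusted p = 0.020 from edgeR), and so was *Fads1*, 17.7 against 14.0 and 22.5 against 14.1 CPM (log2 0.55, SE 0.14, adjusted p = 0.044 from edgeR). The other members did not pass, and 7 members in all had an unadjusted p under 0.05, where 14.7% of all genes did. The median log2 difference was 0.15 over the members tested.

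The *Scd1* difference depended on how the reporter was read. With 1 UMI of 2000 as the limit, which brought in 4 libraries, it was -0.76 (adjusted p = 0.0058 from edgeR), and with RFP UMIs as counted, not reduced, it was 0.03 (adjusted p = 0.98 from edgeR). Without the library block it was -1.89 (adjusted p = 1.00 from edgeR). DESeq2 called *Scd1* alone among the members. The type 2 cell marker list differed between the arms in the same direction, at 23.8 CPM in reporter-high and 37.1 in reporter-low cells at day 14 and 21.4 and 32.2 at day 28, as did the B cell list (0.604 and 1.44, then 0.967 and 2.38 CPM). The AM list was at 9185 CPM in the high and 15279 in the low arm at day 14, and 13211 and 14684 at day 28. The classical monocyte list was at 62.2 CPM in the high and 12.6 in the low arm at day 14, and 15.2 and 14.1 at day 28. Whether these lists have a part in the *Scd1* difference was not tested.

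The cholesterol enzymes differed between the arms in opposite directions at days 14 and 28. They summed to 1331 CPM in reporter-high and 1446 in reporter-low cells at day 14, and to 1483 and 1046 CPM at day 28. Of the 19 enzymes, 4 were higher in the reporter-high arm at day 14 and 18 at day 28. *Cyp51* showed both, at 150 against 164 CPM and 144 against 86.5 CPM, so that its level was closer between the days in reporter-high than in reporter-low cells. The fatty acid sum was lower in reporter-high cells on both days, 393 against 464 and 402 against 487 CPM, although at day 28 every fatty acid enzyme but *Scd1* (7 of 8) was higher. Some of these differences were small, such as *Fads2* at 0.276 against 0.267 CPM and *Acaca* at 22.7 against 21.1 CPM. The counts of directions were not set against counting error or all genes.

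**Figure D5:**
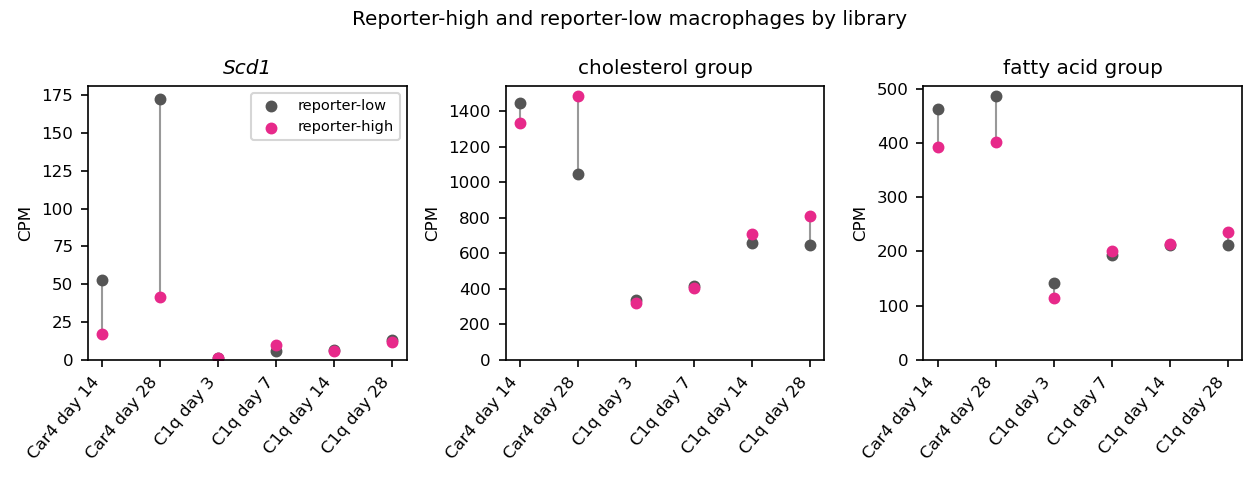
CPM of *Scd1*, of the cholesterol enzymes and of the fatty acid enzymes in reporter-high and reporter-low cells, for Car4 macrophages at days 14 and 28 and C1q macrophages at days 3 to 28. Both gates include cells with and without fibrotic markers. In Car4 macrophages *Scd1* is lower in reporter-high cells on both days (17.2 against 52.5 and 41.8 against 173 CPM), and the cholesterol enzymes differ in opposite directions.

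The same test was run in C1q macrophages, here taken with and without fibrotic markers. At day 28 these gates held 1431 and 415 cells. Over 4 libraries the arms held 301 high and 393 low, 247 and 1301, 785 and 465, and 223 and 1215 cells. The test called 15 of 11705 genes (0.128%) and 0 of the 32 members tested. Among them 6 members had an unadjusted p under 0.05, against 7.65% of all genes, all higher in reporter-high cells (*Sqle*, *Insig1*, *Cyp51*, *Msmo1*, *Lss* and *Fdft1*). Without the day 28 library 1 member did (680 of 11561 genes), and without the day 3 library 9 did (1332 of 12305 genes). DESeq2 also called 0 members (31 of 11705 genes), and 2 had an unadjusted p under 0.05 (434 of 11705 genes). The log2 ratio of the summed cholesterol enzymes was -0.06, -0.04, 0.12 and 0.33 at days 3, 7, 14 and 28. *Scd1* measured 1.45, 9.76, 5.81 and 12 CPM in reporter-high cells of these libraries and 1.5, 5.89, 6.34 and 13.4 CPM in reporter-low cells. The intervals of the summed cholesterol enzymes in both arms overlapped at days 3 and 7, and at days 14 and 28 the sum was higher in reporter-high cells, at 711 against 656 and 810.2 against 646 CPM.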

How the data were processed

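The deposited files hold UMI counts per gene and barcode that the authors made with Cell Ranger 6.0.0 on mm10, per the submitters' processing notes, from 10x 3′ libraries; the counts were not normalized. The 33 members and the gene lists were chosen with earlier results of these data known, and gate limits were set after the data were seen. Cells matching more than 1 gate (2762) and cells in no gate (4170) were left out, and no doublet caller was run. Genes are named by 1 rule: every member is accounted for, the most abundant 5 of each group and all regulators are given in full, the 5 most alike non-members and the members called in the reporter test are named. Other members and genes outside the rule were chosen after their values were seen.

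UMIs were summed per gate and library and divided by the total. Levels have exact Poisson intervals, ratios exact conditional binomial intervals and shares exact Clopper-Pearson intervals, all at 95%. A gate needed 20 cells. In ratios, a gene needed a mean of 10 CPM in the compared libraries. The likeness used log2(CPM + 1) and genes of at least 20 CPM. Tests ran in edgeR 4.0.16 (TMM, filterByExpr, threshold 0.05) and DESeq2 1.42.0 under R 4.3.3, and levels were computed with pandas 2.3.3 and scipy 1.17.1. edgeR was checked on simulated data. The p-values measure the spread between arms of 2 Car4 or 4 C1q libraries, which may be technical. With only 2 Car4 libraries, the spread of a gene was estimated largely from values shared across genes. Each SE was derived from the log2 difference and the F statistic. Some genes of the marker lists and the counts of the further cholesterol gene list are not reported here.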

Additional observations from a re-analysis of the deposited data

Results flagged for a closer look

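In Car4 macrophages the summed cholesterol enzymes had a log2 ratio of reporter-high to reporter-low cells of -0.12 at day 14 (interval -0.15 to -0.09) and 0.50 at day 28 (0.47 to 0.53), which is a difference in opposite directions at the 2 time points. The difference between the days was not tested, since each day is 1 library.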

How the results depend on the processing

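Between time points, no paired analysis was possible because each group is 1 library. The reporter test pairs the arms of a library through its block. Of 56 recomputed ratios of the summed groups in AMs, 30 moved by less than their counting interval, 26 moved by more and 0 changed sign. For the cholesterol enzymes the log2 ratio at day 3 was 0.87 with CPM averaged over cells, 0.84 with a stricter gate and 0.97 with cycling and fibrotic-marker cells kept, an alternative chosen after seeing the data. At day 7 it was 0.47 without cells above 30000 UMIs, 0.52 averaged, 0.49 with the stricter gate and 0.38 with TMM factors. At day 14 the values in that order were 0.81, 0.85, 0.66 and 0.69, and 0.75 with the added cells. At day 28 they were 0.54, 0.56, 0.39 and 0.37. For the fatty acid enzymes, day 3 gave 0.44 averaged and 0.46 with the stricter gate, day 7 gave 0.53 averaged and 0.54 with TMM, day 14 gave 0.65 with the stricter gate and 0.68 with TMM, and day 28 gave 0.59 without cells above 30000 UMIs, 0.62 averaged, 0.82 with the added cells and 0.66 with TMM. The members 1.5-fold higher at day 28 numbered 9 without cells above 30000 UMIs, 9 averaged and 8 with the added cells, against 5, and 2 members were 1.5-fold lower at day 3 with the stricter gate, against 0. The cause was not tested, and shares of all genes were not computed under these settings.

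In the Car4 reporter test 3 members passed in edgeR, 1 in DESeq2, 2 with DESeq2 size factors in edgeR, 6 without a low-count filter, 0 without the library block, 1 with a limit of 1 reporter UMI and 1 with reporter UMIs as counted, where *Scd1* turned to 0.026. Over all genes the calls, in that order, were 612, 231 and 547 of 11348, 951 of 18081, 0 of 11348, 219 of 12307 and 251 of 11174. Without the block *Scd1* had a log2 of -1.89 and an adjusted p of 1.00 from edgeR. In the C1q test leaving out each library gave 0 to 0 members. Without days 3, 7, 14 and 28 in turn, 106 of 12305, 1 of 11433, 6 of 10950 and 8 of 11561 genes were called. For Car4 macrophages leaving out 1 of the 2 libraries was not run, because no residual degrees of freedom remain. Depth limits the low members (*Fads2*, *Ggps1*, *Tm7sf2*, *Elovl6* and *Fads1*), and gates of under 70 cells, such as sham C1q macrophages, have wide intervals.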
